A study of Mus musculus with 6 samples.

Results

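The collagen alpha chain genes encode the polypeptides that wind in threes into the triple helix of collagen. They were taken as every row of the table whose symbol reads Col, a number, a and a number, which gave 40 of the 17460 genes. The livers came from 3 control and 3 Blnc1 LKO mice of strain C57BL/6, aged 9 months, all of which had eaten the NASH diet D09100301 for 24 weeks, so no chow-fed liver enters the comparison. Blnc1 is a long noncoding RNA, and LKO stands for its liver-specific knockout. The study made LKO mice by giving mice that carry a constitutive Cas9 transgene an adenovirus with single-guide RNAs against Blnc1. Its text describes a GFP adenovirus as the control for a high-fat diet experiment. It relates the partial loss of Blnc1 in whole liver to weak uptake of adenovirus by non-parenchymal cells, the compartment that holds stellate and endothelial cells. For this it reports a strong loss of Blnc1 in fractionated hepatocytes and little change in the non-parenchymal fraction. Blnc1 under its own symbol was not analysed here, so the deletion was not checked. RefSeq lists the name Blnc1 under Paqr9, which the study treats as a separate neighbouring gene. Paqr9 had normalized values of 16950, 18810 and 15156 in control and 18268, 15663 and 20027 in Blnc1 LKO livers, which overlapped.

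A collagen chain carries repeats of glycine at each turn of the helix, and the way in which finished molecules assemble defines its class. Fibrillar chains (types I, III and V among them) form the banded fibres that scar tissue in liver is known for, and network chains form sheets, of which type IV builds the basement membrane. Beaded filaments of type VI lie between fibres and cells, and FACIT chains, which have interrupted triple helices, decorate the surface of fibrils. In injured liver, activated stellate cells and portal fibroblasts are regarded as the main makers of fibrillar collagen, whereas type XVIII collagen, from which endostatin is cut, is also made by hepatocytes. The 40 chains were 10 fibrillar, 9 network, 6 beaded filament, 7 FACIT and 8 other chains, the last being transmembrane chains, multiplexins, the anchoring fibril chain Col7a1 and Col28a1. Col2a1, Col9a1, Col19a1 and Col26a1 were not analysed here.

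Values are reads divided by a size factor for the liver and are not corrected for gene length. The livers held 65384969 to 89350181 reads on the listed genes. Livers of the same group differed by more than counting noise (chi-square per degree of freedom 20.8 to 69.96), and each was counted as 1 replicate. Whether the mice came from separate litters or cages is not given in the sources used here. The log2 difference of a gene is the Blnc1 LKO mean minus the control mean of log2(value + 1), which understates the change of low genes, and it was tested by limma with Benjamini-Hochberg adjustment across all 17297 genes that reached a value of 1 in 3 or more livers. All 40 chains passed this filter, 38 of them with a value of at least 1 in every liver, and Col6a4 passed through the Blnc1 LKO livers alone. A chain is called high at a mean value of at least 100 over the 6 livers, which divided the chains into 22 high and 18 low ones. In whole liver, fewer cells of a type and less RNA per cell cannot be told apart.

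The most abundant collagen message of these livers did not belong to a fibril. Per kilobase of the longest coding transcript, Col18a1 stood at 8789 ± 307 (SD, n = 3) in control livers, followed by Col3a1 at 6010 ± 766, Col1a2 at 2628 ± 318, Col1a1 at 2355 ± 346, Col14a1 at 1834 ± 73.7 and Col4a1 at 1548 ± 61.5. In this order the livers of Col1a2 and Col1a1 overlapped, as did those of Col4a2 and Col6a1 further down, whereas Col18a1, Col3a1 and the pair of type I chains were separated from each other. Over the union of annotated exons, which holds retained introns for Col1a2, that chain moved from rank 3 to rank 6. The lower end was reached by Col6a4 and Col11a1, with 3 reads or fewer in each liver. In Blnc1 LKO livers Col18a1 remained in front at 9071 ± 223 per kilobase, followed by Col3a1 at 4344 ± 591, and Col14a1 at 1559 ± 142 passed Col1a1 at 1542 ± 264, although the livers of these chains overlapped there.

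Collagen chains summed to 2318, 2137 and 2290 CPM, their part of all listed reads, in control and 1738, 2198 and 1793 in Blnc1 LKO livers. The mean was lower by 15.1%, and on this scale the groups overlapped because Blnc1 LKO replicate 2 lay above control replicate 2. Summed as values divided by size factor, the groups did not overlap, with 158120 to 171847 in control and 133821 to 156883 in Blnc1 LKO livers. Without Col18a1 the sums were 1639, 1461 and 1658 CPM in control and 1087, 1469 and 1129 in Blnc1 LKO livers, a mean lower by 22.6%. These overlapped too, whereas sums of values divided by size factor did not (108134 to 123943 in control and 84300 to 104869 in Blnc1 LKO livers). The make-up of the sum also differed between the groups. Col18a1 accounted for 29.3%, 31.6% and 27.6% of the collagen reads in control and for 37.5%, 33.2% and 37.0% in Blnc1 LKO livers, without overlap. Fibrillar chains accounted for 44.3%, 39.1% and 44.1% in control and 36.7%, 38.1% and 36.0% in Blnc1 LKO livers, again without overlap, while the shares of network, beaded filament and FACIT chains overlapped. The 6 highest chains of each liver held 78.2% to 80.4% of the collagen reads, and the 18 low chains together held 0.312% to 0.519%.

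Control and Blnc1 LKO livers were then compared chain by chain. Of the 22 high chains, 16 had a log2 difference below 0, beside 52.16% of all genes with a mean of at least 100. The 12 of these with an unadjusted p under 0.05, from types I, III, IV, V, VI, VIII, XII and XIV, were lower in Blnc1 LKO livers by 12.8% to 34.5% of the control mean. The other 6 high chains had means above those of control, by 18.7% for Col5a3, 18.5% for Col4a3, 12.1% for Col23a1, 3.21% for Col18a1, 2.59% for Col27a1 and 1.38% for Col4a5. None of the 40 chains passed an adjusted p under 0.05 in limma, where 1 of all 17297 genes did (0.00578%). At an unadjusted p under 0.05, 12 chains were lower and 3 higher (Col5a3, Col17a1 and Col6a4), beside 2.74% and 2.94% of all genes tested. Nothing is read from the call of Col6a4, which entered the test through the group where it is high. All 12 were among the 22 high chains, and of all 12488 genes with a mean of at least 100, 3.16% were lower by the same rule. Every Blnc1 LKO liver lay below every control liver for 11 chains (5.28% of all genes, and 5.69% of those with a mean of at least 100) and above every control liver for 2 chains (5.35% of all genes). The latter were Col17a1 and Col6a4, and nothing is read from Col6a4 here either. Scaled by library size alone, the count of 11 became 5, which were Col1a1, Col1a2, Col5a1, Col5a2 and Col14a1. On the recovered reads, DESeq2 called 4 chains at an adjusted p under 0.05, all lower in Blnc1 LKO livers (0.486% of all genes in either direction), and edgeR called none (2 of all genes, 0.0116%).

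**Figure D1:**
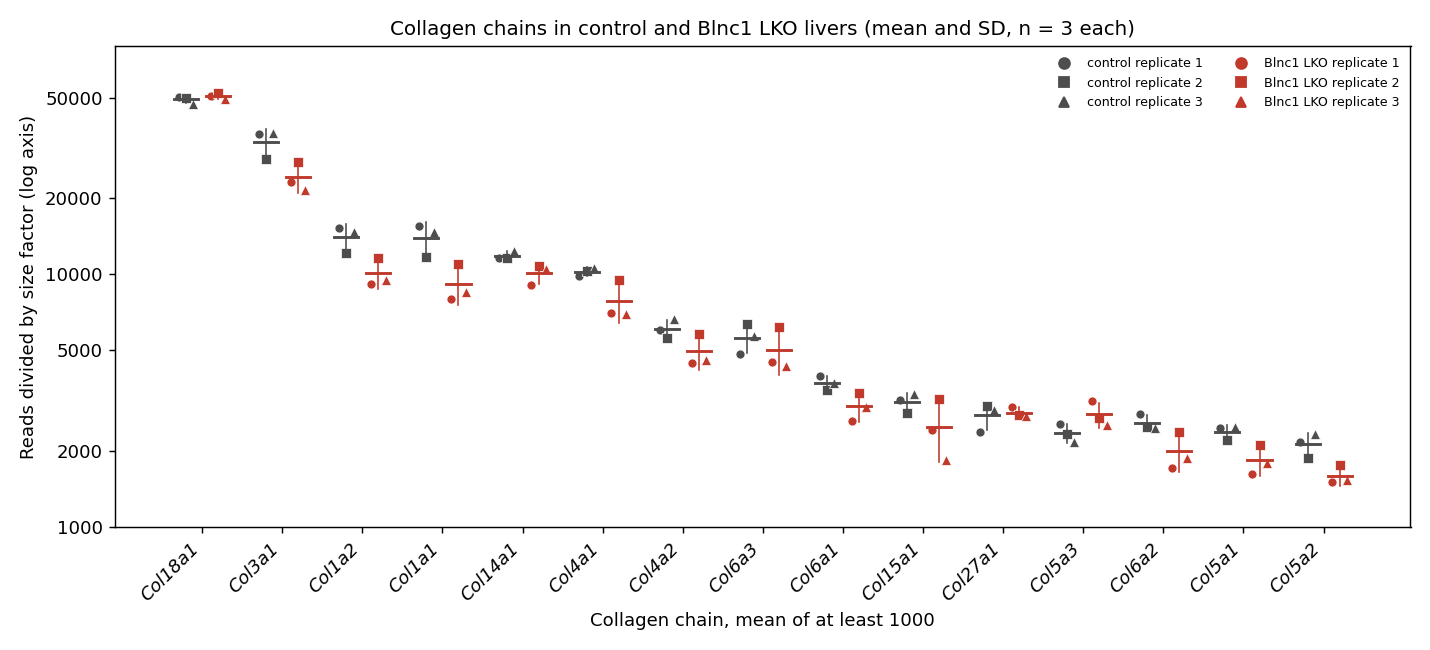
Values (reads divided by size factor, log axis) of the 15 chains with a mean of at least 1000, with 1 symbol per liver, a horizontal line for the group mean and a vertical line for 1 SD (n = 3 livers per group). For Col3a1, Col1a2 and Col1a1 all red symbols (Blnc1 LKO) lie below all grey symbols (control), whereas those of Col18a1 and Col27a1 are mixed, and Blnc1 LKO replicate 2 (square) tops its group in most chains.

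The 3 largest differences among high chains belonged to fibrillar genes. Col1a1 and Col1a2 encode both chains of type I collagen, the main fibre of scar. Col1a1 had values of 15541, 11645 and 14716 in control and 8006, 10928 and 8500 in Blnc1 LKO livers. The lowest control liver stood close above the highest Blnc1 LKO liver, and the log2 difference was −0.61 (SE 0.137, limma adjusted p = 0.548, DESeq2 adjusted p = 0.00462). Col1a2 had values of 15299, 12115 and 14751 in control and 9164, 11636 and 9486 in Blnc1 LKO livers, with a log2 difference of −0.48 (SE 0.113, limma adjusted p = 0.548, DESeq2 adjusted p = 0.0161). Col3a1, which forms type III collagen of 1 kind of chain and runs with type I in the same fibres, had 35709, 28524 and 36093 in control and 23143, 27848 and 21523 in Blnc1 LKO livers. Its log2 difference was −0.47 (SE 0.119, limma adjusted p = 0.604, DESeq2 adjusted p = 0.0247). In these 3 genes control replicate 2 was the lowest control liver and Blnc1 LKO replicate 2 the highest of its group.

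Type V chains help to start type I fibrils and set their width, and their genes differed in direction. Col5a2 had values of 2168, 1881 and 2335 in control and 1501, 1759 and 1532 in Blnc1 LKO livers, with a log2 difference of −0.41 (SE 0.0948, limma adjusted p = 0.548, DESeq2 adjusted p = 0.0302). Col5a1 had 2455, 2206 and 2485 in control and 1613, 2112 and 1791 in Blnc1 LKO livers, with a log2 difference of −0.38 (SE 0.0997, limma adjusted p = 0.619). Both kept the groups apart. Col5a3, the third chain of the type, had 2556, 2333 and 2161 in control and 3142, 2693 and 2532 in Blnc1 LKO livers, where control replicate 1 lay above Blnc1 LKO replicate 3. Its log2 difference was 0.24 (SE 0.0931, limma adjusted p = 0.84). Col27a1, a fibrillar chain known from cartilage, had 2371, 3011 and 2908 in control and 2994, 2762 and 2748 in Blnc1 LKO livers, with a 95% confidence interval of the log2 difference from −0.17 to 0.25. The low fibrillar chains Col11a2, Col24a1 and Col11a1 had log2 differences of 0.15, 0.09 and 1.00 with adjusted p of at least 0.946 (limma).

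Promoter windows of RefSeq (build GRCm38.p6, 250 bases before to 50 after the annotated start) were matched by symbol for 33 of the 40 chains, with 35 windows since Col6a2 and Col18a1 have 2 each. They are shown for chains that were lower together, the fibrillar genes Col1a2 and Col3a1 and the neighbours Col4a1 and Col4a2, and for Col5a3, which was not lower. Capitals mark each match, on either strand, of TATAAA (the TATA box of many tissue-specific genes), of CCAAT (the box that NF-Y binds) and of GGGCGG (the GC box that Sp1 binds), so the reverse complement of each is in capitals too. No 2 different motifs share a base in these 5 windows. The windows are Col1a2 on the + strand at chr6:4505368-4505667, Col3a1 on the + strand at chr1:45311288-45311587, Col4a1 on the − strand at chr8:11312777-11313076, Col4a2 on the + strand at chr8:11312555-11312854 and Col5a3 on the − strand at chr9:20815018-20815317, each written 5′ to 3′ along its own gene.
Col1a2: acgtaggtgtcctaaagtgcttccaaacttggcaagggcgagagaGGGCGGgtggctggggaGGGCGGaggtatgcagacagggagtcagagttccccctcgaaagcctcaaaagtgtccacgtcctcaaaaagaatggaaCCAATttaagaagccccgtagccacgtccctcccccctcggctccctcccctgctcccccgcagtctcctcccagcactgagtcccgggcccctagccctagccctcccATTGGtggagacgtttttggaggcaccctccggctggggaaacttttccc
Col3a1: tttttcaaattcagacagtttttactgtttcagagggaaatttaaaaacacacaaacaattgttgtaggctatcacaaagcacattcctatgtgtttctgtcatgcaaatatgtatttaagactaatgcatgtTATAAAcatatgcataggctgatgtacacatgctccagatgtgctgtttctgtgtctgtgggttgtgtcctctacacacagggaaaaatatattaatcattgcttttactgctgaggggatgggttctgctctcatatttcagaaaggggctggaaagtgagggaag
Col4a1: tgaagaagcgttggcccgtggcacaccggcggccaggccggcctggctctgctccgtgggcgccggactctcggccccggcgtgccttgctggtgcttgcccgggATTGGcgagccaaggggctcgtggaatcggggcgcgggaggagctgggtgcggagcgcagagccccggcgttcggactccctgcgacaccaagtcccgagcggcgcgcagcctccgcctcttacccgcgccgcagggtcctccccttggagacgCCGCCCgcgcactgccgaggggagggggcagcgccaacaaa
Col4a2: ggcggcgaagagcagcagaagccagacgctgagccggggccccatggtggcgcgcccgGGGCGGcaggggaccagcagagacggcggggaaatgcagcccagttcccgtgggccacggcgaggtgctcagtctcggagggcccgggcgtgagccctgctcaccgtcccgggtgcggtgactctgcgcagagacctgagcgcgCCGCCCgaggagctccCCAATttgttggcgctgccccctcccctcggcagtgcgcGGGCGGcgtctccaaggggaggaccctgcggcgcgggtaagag
Col5a3: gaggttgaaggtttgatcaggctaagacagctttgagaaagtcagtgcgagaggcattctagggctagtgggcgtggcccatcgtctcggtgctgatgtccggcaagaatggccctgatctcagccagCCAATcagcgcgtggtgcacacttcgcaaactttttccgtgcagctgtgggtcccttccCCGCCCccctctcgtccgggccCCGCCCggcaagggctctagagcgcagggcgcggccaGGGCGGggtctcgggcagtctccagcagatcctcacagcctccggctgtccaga
Positions count back from −1, the base before the start, and forward from 1, the start itself. The Col3a1 window was the poorest in G and C of the 35, at 37.7%, and held TATAAA from base −117 but neither of the other motifs. The Col1a2 window held GGGCGG from −205 and −188 and CCAAT from −109, with an inverted CCAAT from base 1. The Col4a1 and Col4a2 genes face away from each other and their first 22 bases overlap, so the windows share 78 bases. The GGGCGG match of Col4a1 from base 10 and that of Col4a2 from base 8 are the same site, counted in both windows. The Col5a3 window held CCAAT from −122 and 3 GC-rich matches from −63, −41 and −4. Over all 35 windows, GGGCGG was found in 65.7%, beside 35.7% of all 32851 promoter windows, with a median G and C content of 60% and 52.7%. CCAAT was found in 34.3% beside 37.4%, and TATAAA in 14.3% beside 13.6%. Of the 9 windows of the 8 matched chains that were lower at an unadjusted p under 0.05, 7 held GGGCGG, 3 held CCAAT and 1 held TATAAA. These windows are not all separate, since those of Col4a1 and Col4a2 overlap, as do the 2 of Col6a2. High chains held GGGCGG in 13 of 19 windows and low chains in 10 of 16. These matches describe letters in the windows and were not tested against the expression values.

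Network chains of the basement membrane were divided between an abundant pair and 4 less abundant genes. Col4a1 and Col4a2 supply the chains of the common type IV network and are read outward from a shared start region. Col4a1 had 9800, 10330 and 10599 in control and 7029, 9490 and 6974 in Blnc1 LKO livers, without overlap and with a log2 difference of −0.40 (SE 0.112, limma adjusted p = 0.695). Without Blnc1 LKO replicate 2 the log2 difference reached −0.55, and Col4a1 was then the 1 chain to pass the adjustment (adjusted p = 0.0393, limma). Col4a2 had 6014, 5602 and 6644 in control and 4444, 5825 and 4587 in Blnc1 LKO livers, where Blnc1 LKO replicate 2 lay above control replicate 2, with a log2 difference of −0.30 (SE 0.108, limma adjusted p = 0.824). The library kit does not mark strand, so reads from the 22 shared bases cannot be told apart.

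The other type IV chains, which form networks known from kidney and other special membranes, had log2 differences above 0 that ranged from 0.0055 for Col4a5 to 1.43 for Col4a6, and none had an unadjusted p under 0.05. Col4a5 had a mean of 544 ± 85.9 (SD, n = 3) in control and 552 ± 131 in Blnc1 LKO livers. Col4a3 had 85.8, 96.9 and 136 in control and 125, 172 and 81.0 in Blnc1 LKO livers, and its neighbour Col4a4 had 68.1, 73.5 and 114 in control and 78.5, 120.3 and 62.7 in Blnc1 LKO livers. These 3 chains were highest in control replicate 3 and Blnc1 LKO replicate 2 of their groups. So were Col4a1, Col4a2, Col3a1, Col5a1, Col5a2, Col8a1, Col14a1 and Col15a1, so the order is not particular to these chains, and Col4a6 was lowest in control replicate 3. The same livers had the highest summed value of 5 cholangiocyte markers (4255 in control replicate 3 and 4024 in Blnc1 LKO replicate 2, beside 2713 to 3188 in the other livers). The part of bile duct cells in these values was not tested. Col4a6 had 71.8, 136 and 8.52 in control and 120.2, 154 and 98.6 in Blnc1 LKO livers, so that 1 control liver at 8.52 stood far below the rest, and the interval of its log2 difference ran from −0.44 to 3.30. Col8a1, which forms hexagonal networks around vessels, had 453, 496 and 539 in control and 413, 439.7 and 275 in Blnc1 LKO livers, all below control, with a log2 difference of −0.43 (SE 0.173, limma adjusted p = 0.857). Its partner Col8a2 and Col10a1 were low chains with log2 differences of 0.21 and 0.27, and Col10a1 overlaps Nt5dc1 on the other strand.

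Of the beaded filament chains, Col6a1 and Col6a2 were lower at an unadjusted p under 0.05, whereas Col6a3 did not reach that threshold. Col6a3 had the highest values of the class without length correction. Per kilobase of coding transcript, Col6a1 led in control livers at 906, beside 556 for Col6a3 and 554 for Col6a2. Type VI collagen is built of 1 chain each from Col6a1, Col6a2 and a larger chain such as that of Col6a3. Col6a1 had 3945, 3475 and 3727 in control and 2626, 3401 and 2974 in Blnc1 LKO livers, with a log2 difference of −0.31 (SE 0.0946, limma adjusted p = 0.739). Col6a2 had 2795, 2476 and 2466 in control and 1717, 2383 and 1882 in Blnc1 LKO livers, with a log2 difference of −0.38 (SE 0.116, limma adjusted p = 0.745). Both separated the groups by a small margin set by Blnc1 LKO replicate 2. Col6a3 had 4820, 6334 and 5694 in control and 4506, 6166 and 4349 in Blnc1 LKO livers, which overlapped widely, with a log2 difference of −0.17 (95% confidence interval −0.50 to 0.15). The chains Col6a5 and Col6a6, which can take the place of the larger chain, had log2 differences of −0.22 and −0.04. Col6a4 had 0, 1 and 0 reads in control and 3, 2 and 3 reads in Blnc1 LKO livers, and no fold is given at such counts.

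Of the FACIT chains, the most abundant was lower by a small amount. Col14a1, which binds the surface of type I fibrils, had 11538, 11592 and 12388 in control and 9024, 10741 and 10443 in Blnc1 LKO livers. The groups did not overlap and the log2 difference was −0.24 (SE 0.074, limma adjusted p = 0.781). Col12a1, its close relative, had 611, 616 and 587 in control and 489, 568 and 523 in Blnc1 LKO livers, with a log2 difference of −0.20 (SE 0.0855, limma adjusted p = 0.87). Col16a1 had a mean of 854 ± 21.1 (SD, n = 3) in control and 799 ± 115 in Blnc1 LKO livers, where Blnc1 LKO replicate 2 was the highest of all livers at 931. The low FACIT chains Col20a1, Col9a3, Col9a2 and Col22a1 had log2 differences from −0.07 to 0.67, and their groups overlapped.

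The multiplexins Col18a1 and Col15a1 are basement membrane collagens of similar build and differed in their values. Col18a1 had 50336, 49986 and 47198 in control and 50723, 52015 and 49522 in Blnc1 LKO livers. It was the highest of all chains, its groups overlapped, and its log2 difference of 0.05 had a 95% confidence interval from −0.10 to 0.19, so a difference of the size seen for Col1a1 lies outside the interval. Col18a1 overlaps Slc19a1 on the other strand, and reads in the shared stretch cannot be told apart by strand. Col15a1, which is known from vessels and becomes abundant in capillarized sinusoids, had 3172, 2836 and 3350 in control and 2417, 3194 and 1845 in Blnc1 LKO livers. Its log2 difference was −0.36 with an interval from −0.75 to 0.03 (adjusted p = 0.891, limma). Among transmembrane chains, Col13a1 and Col23a1 had log2 differences of −0.03 and 0.21. Col17a1, an anchor of epithelial cells, had 8.39, 4.26 and 7.46 in control and 10.7, 16.0 and 13.4 in Blnc1 LKO livers, all above control, with a log2 difference of 0.92 (SE 0.366, limma adjusted p = 0.851) at 4 to 17 reads per liver. Col7a1, Col25a1 and Col28a1 were low chains with log2 differences of −0.20, 0.15 and 0.58.

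**Figure D2:**
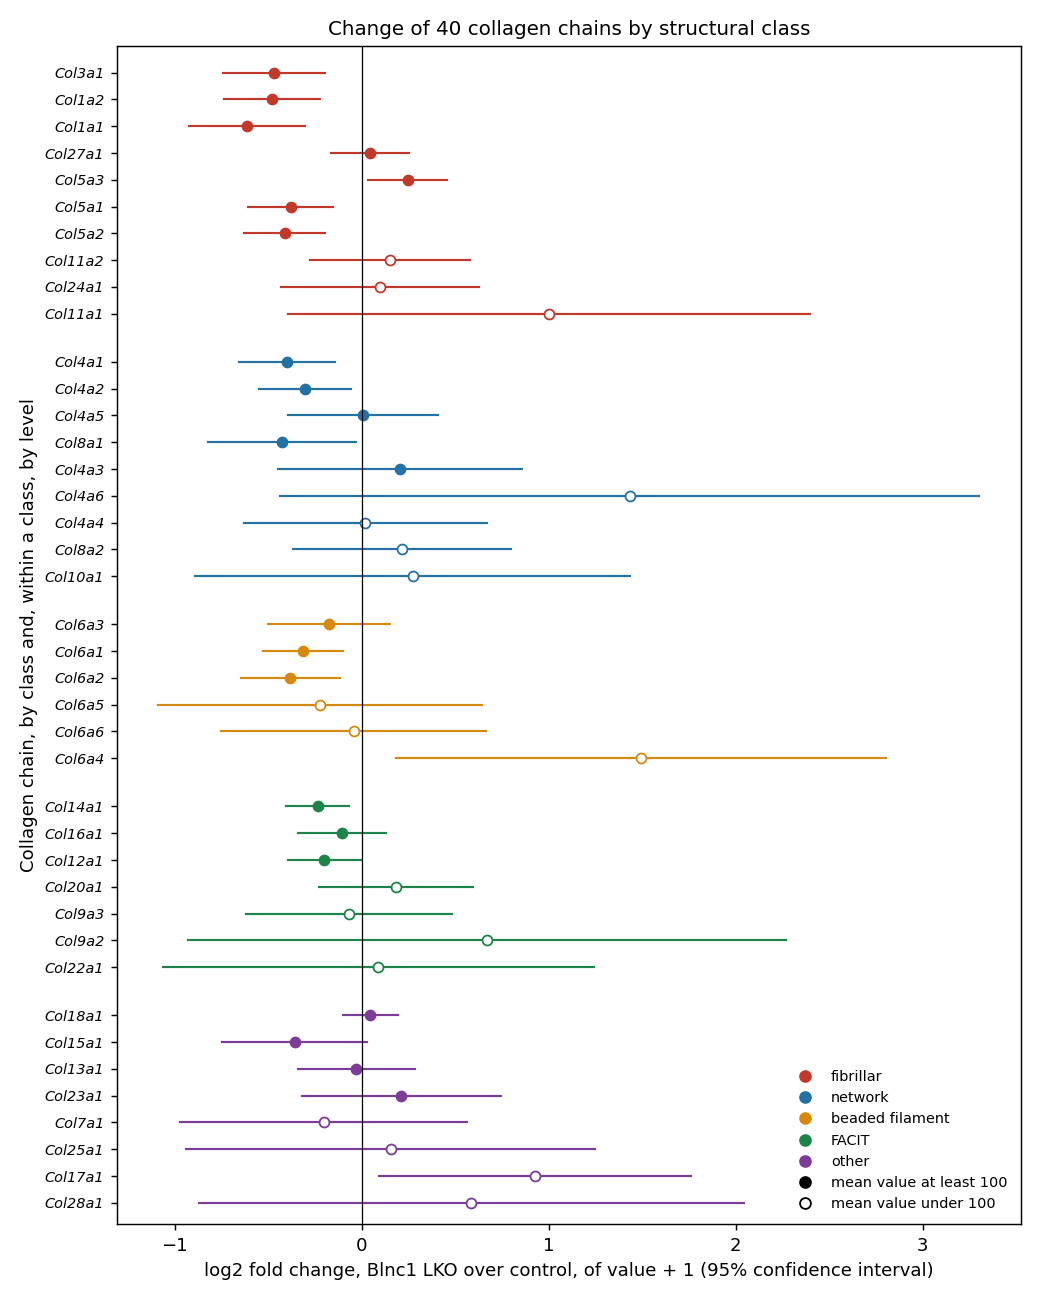
The log2 difference of Blnc1 LKO over control on the scale of log2(value + 1), with its 95% confidence interval from limma, for all 40 chains by structural class. Within a class, chains run from the highest mean value at the top to the lowest, filled points are high chains and open points low chains; intervals below 0 are found among filled points alone, and those of open points are mostly wider.

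The classes were next set beside each other. Fibrillar chains had 5 lower chains and 1 higher chain of 10 at an unadjusted p under 0.05, network chains 3 lower of 9, beaded filament chains 2 lower of 6 with Col6a4 set aside, FACIT chains 2 lower of 7, and other chains 1 higher of 8. By this rule 2.74% of all genes tested were lower and 2.94% higher. Among genes with a mean of at least 100, 3.16% were lower. The median log2 difference was −0.17 for fibrillar, 0.02 for network, −0.20 for beaded filament, −0.07 for FACIT and 0.10 for other chains, beside −0.001 for all genes tested. The beaded filament median counts Col6a4, here and in the values below, and was −0.22 over the other 5 chains. Leaving out 1 liver moved most of the class medians by more than 1.5 times. The beaded filament median became −0.0086 without control replicate 2, −0.05 without Blnc1 LKO replicate 1, −0.34 without control replicate 3 and −0.37 without Blnc1 LKO replicate 2. The network median ran from −0.17 without Blnc1 LKO replicate 2, and −0.11 without control replicate 1, to 0.16 without Blnc1 LKO replicate 3. The FACIT median ran from −0.22 without Blnc1 LKO replicate 2 to 0.13 without Blnc1 LKO replicate 1, and that of other chains from −0.08 without control replicate 1 to 0.20 without control replicate 2. The fibrillar median stayed between −0.21 and −0.13. Each class mixes high and low chains. Among high chains alone, the median was −0.41 for the 7 fibrillar, −0.30 for the 5 network, −0.31 for the 3 beaded filament and −0.20 for the 3 FACIT chains, and 0.01 for the 4 other chains. Liver by liver, the median difference of the high fibrillar chains from the control mean was 0.10, −0.17 and 0.08 in control and −0.52, −0.26 and −0.47 in Blnc1 LKO livers, without overlap. The medians of the high beaded filament and FACIT chains also kept the groups apart, whereas those of network and other chains overlapped. The difference between classes was not tested, since the classes hold 3 to 7 high chains that share the same livers.

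The median log2 difference was below 0 for high chains and above or near 0 for low chains. Of the 22 high chains, 16 had a log2 difference below 0, beside 52.16% of all genes with a mean of at least 100. The median of the 22 was −0.27, beside −0.005 over those genes. Of the 18 low chains, Col6a4 among them, 4 had a log2 difference below 0, beside 45.77% of all genes with a mean under 100. The median of the 18 was 0.17, beside 0.04 over those genes. Over the 31 chains with at least 10 reads in every liver, the high chains kept a median of −0.27 and the 9 remaining low chains had 0.02. Across all 40 chains the median was therefore near 0 (−0.01), with 20 chains on either side. High chains had 12 lower at an unadjusted p under 0.05 and 1 higher, and low chains had 0 lower and, with Col6a4 set aside, 1 higher, which was Col17a1. By this rule 3.16% of genes with a mean of at least 100 were lower, and 2.94% of all genes tested were higher.

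**Figure D3:**
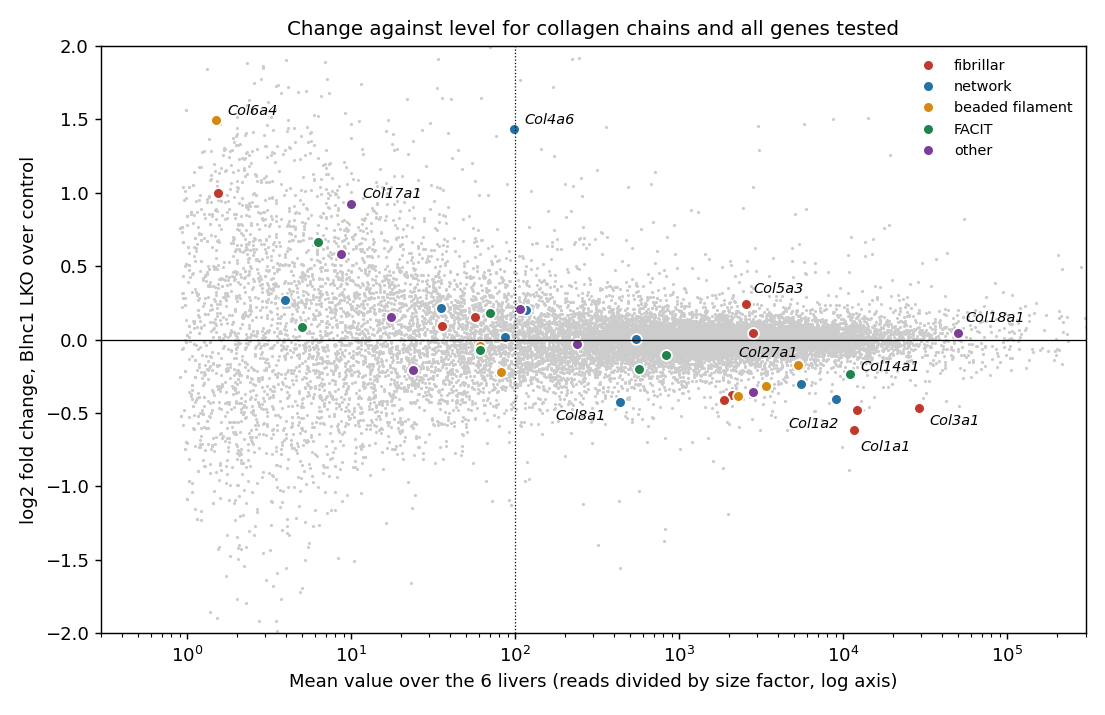
The log2 difference of Blnc1 LKO over control against the mean value of the 6 livers (log axis), with all 17297 genes tested as grey points and collagen chains in colour by class; 35 genes beyond 2 on the log2 scale are not drawn, and the dotted line marks a mean of 100. Right of the line most chains lie below 0 while Col18a1 lies near 0, and left of it the chains spread with the grey points.

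Ratios between chains, of 1 type or of types I and III, cancel what a liver's scaling shares between them. The ratio of Col1a1 to Col1a2 was 1.02, 0.961 and 0.998 in control and 0.874, 0.939 and 0.896 in Blnc1 LKO livers, lower in each Blnc1 LKO liver than in any control liver. The ratio of Col3a1 to Col1a1 was 2.30, 2.45 and 2.45 in control and 2.89, 2.55 and 2.53 in Blnc1 LKO livers, higher in each. Both ratios contain Col1a1, which had the largest log2 difference of the high chains (−0.61), so they are not separate observations. By contrast, the ratios of Col4a1 to Col4a2 (1.69 ± 0.135 and 1.58 ± 0.0545, SD, n = 3 livers), of Col5a1 to Col5a2 (1.12 ± 0.0548 and 1.15 ± 0.0656), of Col6a1 to Col6a2 (1.44 ± 0.0602 and 1.51 ± 0.0781) and of Col8a1 to Col8a2 (15.8 ± 4.58 and 10.04 ± 2.51) overlapped between the groups. The ratio of Col5a3 to Col5a2, chosen after its values were seen, was 1.18, 1.24 and 0.926 in control and 2.09, 1.53 and 1.65 in Blnc1 LKO livers. These are descriptions with no test.

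**Figure D4:**
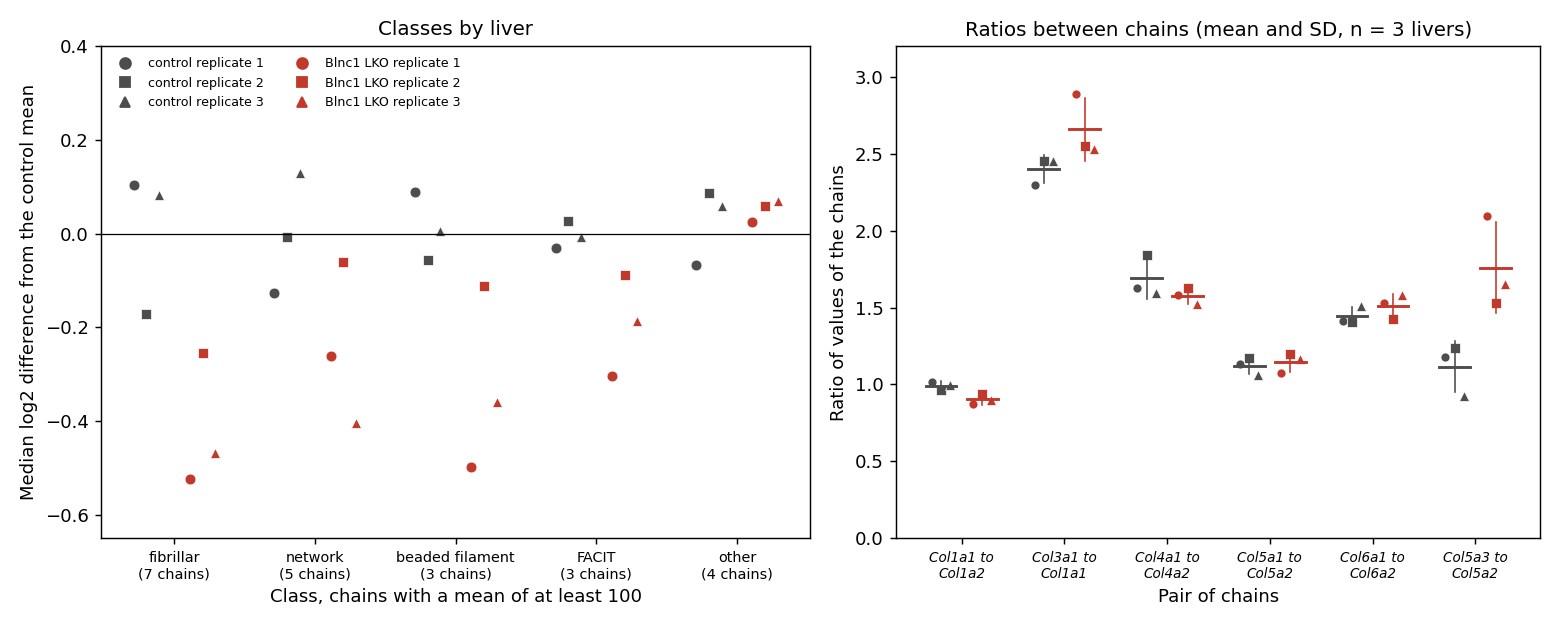
Left, the median over the high chains of each class of the log2 difference of a liver from the control mean, with 1 symbol per liver. Right, the ratio of values between pairs of chains in each liver, with the group mean and 1 SD (n = 3 livers); Blnc1 LKO livers (red) lie below control for Col1a1 to Col1a2 and above it for Col3a1 to Col1a1 and Col5a3 to Col5a2, and overlap control for the other pairs.

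The spread within the Blnc1 LKO group was shared by most high chains. Blnc1 LKO replicate 2 was the highest liver of its group in 19 of the 22 high chains and in all 12 chains that were lower at an unadjusted p under 0.05, and control replicate 2 was the lowest control liver in 7 of these 12. Without Blnc1 LKO replicate 2, 15 chains were lower at an unadjusted p under 0.05, and without Blnc1 LKO replicate 3, 9 were. Markers of collagen-making cells differed among themselves. Of 5 markers of activated stellate cells or myofibroblasts, all had a log2 difference below 0, beside 50.38% of all genes tested. At an unadjusted p under 0.05, 2 were lower (beside 2.74% of all genes tested), Acta2 and Tagln. Acta2 had 558, 574 and 528 in control and 332, 425 and 404 in Blnc1 LKO livers (limma adjusted p = 0.548, DESeq2 adjusted p = 0.0157). Tagln had an adjusted p of 0.84 in limma and 0.615 in DESeq2. The summed value of the 5 markers ranged from 60321 to 70587 in control and from 46704 to 70464 in Blnc1 LKO livers. Most of it is Spp1 (mean 58079 over the 6 livers, beside 470 for Acta2). The sum therefore follows Spp1 and does not describe Acta2, whose groups did not overlap. Of 6 stellate cell markers, Rgs5 alone was lower at an unadjusted p under 0.05 (limma adjusted p = 0.548, DESeq2 adjusted p = 0.0492). It had near equal values of 1790, 1790 and 1793 in Blnc1 LKO livers. Lrat had a log2 difference of 0.16, and the sums of the 6 markers ranged from 17082 to 18152 in control and from 16231 to 18513 in Blnc1 LKO livers. Of 5 portal fibroblast markers none was lower by that rule. Their sums, most of which is Gas6, were 19554 to 20697 and 15830 to 21584, highest in Blnc1 LKO replicate 2. Of 5 sinusoidal endothelial markers, Lyve1 and Pecam1 were lower, with sums of 18936 to 20143 and 18408 to 19120, lowest in Blnc1 LKO replicate 2, and no marker of these 4 lists was at 0 in a liver. Hepatocyte markers overlapped (summed values, most of which is Alb, of 4816654 to 5382555 in control and 4696031 to 5717517 in Blnc1 LKO livers). The part of cell numbers in the collagen values was not tested.

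Genes that make, secrete and remodel collagen were taken from 6 lists with 57 genes, all of which were tested. In these lists 6 genes were lower and 2 higher at an unadjusted p under 0.05 (beside 2.74% and 2.94% of all genes tested), and the median log2 difference was −0.11. Before secretion, Serpinh1, the collagen chaperone HSP47, had 4372, 4651 and 4380 in control and 2979, 3927 and 3585 in Blnc1 LKO livers, all below control, with a log2 difference of −0.36 (SE 0.0949, limma adjusted p = 0.619). Adamts2, which cuts the amino propeptide, was lower by the same rule (−0.21), and Pcolce2, an enhancer of carboxyl propeptide cleavage, was higher (0.44). Of the 14 prolyl and lysyl modifying enzymes and their partners none was lower or higher by that rule. Of the 5 crosslinking enzymes all had a log2 difference below 0, beside 50.38% of all genes tested. Loxl2 had 1295, 1244 and 1353 in control and 896, 1124 and 952 in Blnc1 LKO livers (log2 difference −0.39, limma adjusted p = 0.548). Among 10 fibril-binding proteoglycans and partners, Sparc, a collagen-binding matrix protein, was lower (−0.26). Of 10 genes of breakdown and uptake, the collagenase Mmp13 had 613, 585 and 640.1 in control and 359, 459 and 448 in Blnc1 LKO livers (log2 difference −0.54, limma adjusted p = 0.548, DESeq2 adjusted p = 0.00824), and Mmp14 was lower by the same rule (−0.26). Of 9 receptors, Itga10, a collagen-binding integrin subunit, was higher (0.52), and the collagen receptors Ddr1 and Ddr2 were neither lower nor higher by that rule.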

How the data were processed

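PolyA-selected liver RNA was sequenced from 3 control and 3 Blnc1 LKO mice. The authors used STAR for alignment to mm10, HTSeq for gene counts and DESeq2 for their own tests (versions and gene annotation not given in the sources used here, and FastQC is named in the submitters' processing notes). The deposited values are a signal per gene, that is, reads scaled by the size factor of each liver. Columns named WT and KO with a number were matched to the control and LKO livers of that number. The reads were recovered by dividing by the value of 1 read, and 100% of values came out whole (tolerance 0.02 of a read).

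limma (3.58.1, R 4.3.3; lmFit and eBayes with a trend) was fitted to log2(value + 1), a pseudocount of 1, without covariates. The design named raw counts or normalized values as possible, and the latter held. Recovered reads served alternatives with edgeR (4.0.16), DESeq2 (1.42.0) and voom. Further alternatives were a pseudocount of 0.1, the replicate number as a block, no filter, a filter of 10 or more reads in all livers, and each liver left out. The fits were tested on simulated counts.

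The members, classes and gene lists were chosen with earlier results of these data known. Each liver's values are given for chains with a mean of at least 1000, the highest chain of each class and chains with an unadjusted p under 0.05, and other pathway genes are named at an unadjusted p under 0.05. Markers named beside a result, Col4a3, Col4a4, Col4a6, Ddr1 and Ddr2 were chosen after their values were seen. Positions and lengths came from GENCODE M21 and promoter sequences from RefSeq, both on GRCm38, the assembly of mm10. Protein sequences were not used here.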

Additional observations from a re-analysis of the deposited data

How the results depend on the processing

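Of 264 log2 differences of the 19 named chains under the alternatives, 263 kept their direction, and Col27a1 turned to −0.06 without control replicate 1. The count of chains at an adjusted p under 0.05 was 0 in limma and 4 in DESeq2, and 0 to 1 with each liver left out. The 3 chains higher at an unadjusted p under 0.05 became 1 in DESeq2 or with at least 10 reads in every liver, and 1 to 2 with a liver left out. The 12 lower ones were 9 to 15 with a liver left out and 10 to 12 under the other alternatives. By library-size CPM, 5 chains lay below every control liver instead of 11, and by TMM 11. The median of fibrillar chains was −0.38 with at least 10 reads in every liver, where 9 chains were left, and that of other chains −0.030 over 5 chains, and −0.080 to 0.20 with a liver left out. Divided at a mean of 10 instead of 100, high chains had a median of −0.087 and low chains 0.63, since sparse chains then joined the high ones. The cause of the other shifts was not tested. With the replicate block, 11 chains were lower, 2 higher and 0 past the adjustment. Replicate numbers did not pair the livers (correlations of deviations −0.05, 0.02 and −0.17), so the block serves as a check of the fit. With 3 livers a group, and at 3 reads or fewer for Col6a4 and Col11a1, small changes were not detectable at this depth.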

Other observations

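Macrophage markers differed in direction, with 3 of 5 above 0 and 2 below 0 on the log2 scale. Among all genes tested, 2.94% were higher at an unadjusted p under 0.05. Adgre1 and Clec4f, a marker of resident Kupffer cells, passed the unadjusted threshold of 0.05 with higher values in Blnc1 LKO livers (log2 differences 0.15 and 0.46, adjusted p of 0.84 and 0.857, limma), and the summed values were 27541 to 33718 in control and 33287 to 36475 in Blnc1 LKO livers. Adgre1 had 4694, 4615 and 4393 in control and 4867, 5015 and 5287 in Blnc1 LKO livers, without overlap. Clec4f had 11585, 8819 and 7087 in control and 14503, 9864 and 13120 in Blnc1 LKO livers, which overlapped, and its unadjusted p in DESeq2 was 0.0855. Cd68 (4022, 3955 and 3947 in control and 2968, 3999.7 and 3999 in Blnc1 LKO livers) and Trem2 (1921, 1708 and 1888 in control and 1286, 2045 and 1684 in Blnc1 LKO livers) had log2 differences of −0.13 and −0.16 and overlapped between the groups. Trem2, like most high collagen chains, was highest of its group in Blnc1 LKO replicate 2. Of 5 lymphocyte markers none was lower or higher by that rule, and their sums overlapped (870.4 to 1158 and 791 to 1191). The pancreatic acinar list had 2 of 4 genes tested, with Prss2 at 0 in 3 livers and Cela1 higher at an unadjusted p under 0.05 (log2 difference 0.18, adjusted p = 0.865, limma). None of the 5 cholangiocyte markers differed by that rule.

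Per kilobase of coding transcript, Col5a3 lay above Col5a1 in all 6 livers, with 418, 381 and 353 for Col5a3 and 292, 262 and 296 for Col5a1 in control and 513, 440.1 and 414 for Col5a3 and 192, 251 and 213 for Col5a1 in Blnc1 LKO livers. The ratio of their values without length correction, chosen after its values were seen, was 1.04, 1.06 and 0.870 in control and 1.95, 1.27 and 1.41 in Blnc1 LKO livers, higher in each Blnc1 LKO liver than in any control liver.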
